A study of Mus musculus with 4 samples.

Results

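Oxidative phosphorylation is the final stage of respiration in the inner mitochondrial membrane. Complexes I, III and IV pass electrons from NADH to oxygen and pump protons, and complex V, the ATP synthase, makes ATP from the returning protons. Most subunits are encoded in the nucleus and imported, while a small set is encoded by mitochondrial DNA and made inside the organelle, so that complexes I, III, IV and V each join products of both genomes. Hepatocytes are rich in mitochondria, and in many of their functions, such as urea and glucose production, they depend on this supply of ATP.

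The gene group described here was chosen by symbol: nuclear genes that begin with Ndufa, Ndufb, Ndufc, Ndufs, Ndufv, Cox4 to Cox8, Uqcr or Atp5, and mitochondrial genes of the mt-Nd, mt-Co, mt-Atp and mt-Cytb series. It held 102 of the 31053 genes in the matrix, 89 nuclear and 13 mitochondrial, and the nuclear and mitochondrial members were kept apart throughout. The nuclear members comprised 36 subunits of complex I (7 core and 29 accessory), 8 of complex III, 11 of complex IV, 16 genes of complex V, 8 assembly factors of complex I (Ndufaf), 8 tissue isoforms, the supercomplex factor Cox7a2l and Atp5s. Subunits of complex II (Sdh genes) fall outside the symbols and are treated among the neighbouring pathways.

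The study followed hepatocellular carcinoma in mice of a gene-induced model by single-cell RNA sequencing of dissected liver. One sample was normal liver at week 0, and 3 were tumor tissue, at week 4, at week 8 and at a last time point, given as week 10 in the sample's label and as week 12 in the series text. The labels used here name neither the strain, the age and sex of the mice nor the inducing genes, and each time point is 1 sample, prepared with red cell lysis and a droplet kit that reads the 3' ends of transcripts. The deposited data form a single matrix in which cells carry barcode suffixes 1 to 4, and no source used here pairs a suffix with a sample. The suffixes are therefore called libraries 1 to 4, no week or tissue is assigned to any of them, and tumor and normal liver are not compared.

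With 1 library per suffix there was no replicate, and no test was run. Levels are summed unique molecular identifier counts (UMIs) scaled to a common total of 1000000 UMIs of the same cells (CPM), and every interval is a 95% interval for counting error only, which does not cover differences between animals or preparations. A gene was called higher or lower between 2 groups of cells when it had at least 100 UMIs over both, a ratio of at least 1.5 with an interval that leaves out 1, and the same direction in each library with at least 20 cells on both sides. Ratios are given as log2 values, the first group minus the second.

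Of 38072 barcodes, 34644 were analysed, with 15593960 to 49975828 UMIs per library before filtering and a median of 1286 to 3369 UMIs per analysed cell. The filter on the mitochondrial share (under 20% of a cell's UMIs) removed 12, 876, 102 and 716 barcodes from libraries 1 to 4, so it acted unequally on the libraries. The libraries shared 710 barcode sequences. Clustering without the genes described here gave 24 clusters, 22 of which were named as like 1 of 14 cell types by their markers. Hepatocyte-like cells numbered 20341 in 8 clusters. A cluster of 2395 cells led by immunoglobulin genes and a small further cluster stayed unnamed and are left out of the named cells. Vascular endothelial-like clusters also held sinusoidal markers, and Alb plus Apoa1, hepatocyte transcripts, were read at 1357 CPM in the other named cells against 6035 CPM in hepatocyte-like cells, so some hepatocyte RNA was present in droplets of other types.

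The matched RefSeq promoters (GRCm38.p6) of the nuclear members were searched for 3 short motifs. The windows, each 250 bases before to 50 after the annotated start, were found for 72 of 89 nuclear rows, or 71 different genes. The core of the NRF1 site, GCGCATGCG, was found on either strand in 10 of the 71 windows (14.1%) against 1.81% of all 27025 promoter windows. The ETS core CCGGAAG was found in 15 (21.1%) against 9.12%, and the YY1 motif AAGATGGCG in 7 (9.86%) against 1.49% (no overlap with the other motifs was removed). In all, 27 of the 71 windows (38.0%) held at least 1 of these, against 11.8% of all windows. The background of all windows was not matched to the members in base composition. NRF1, the ETS protein GABPA and YY1 are transcription factors known for acting on genes of the respiratory chain, but a match is only a description of the letters. Atp5k and Atp5b are shown because they are 2 subunits of complex V that differed in opposite directions between libraries, and Cox6a1 because it is the widely expressed partner of the most class-restricted member, Cox6a2. The bases before the start are printed 5' to 3' in the gene's direction, with capitals for the motif matches.
Atp5k, chr5:108434400-108434649, minus strand: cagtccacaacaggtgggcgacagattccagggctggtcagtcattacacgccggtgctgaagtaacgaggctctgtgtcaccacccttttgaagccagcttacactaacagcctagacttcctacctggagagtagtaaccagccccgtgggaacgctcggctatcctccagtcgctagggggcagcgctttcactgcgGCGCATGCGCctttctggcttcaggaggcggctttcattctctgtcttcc
Atp5b, chr10:128083057-128083306, plus strand: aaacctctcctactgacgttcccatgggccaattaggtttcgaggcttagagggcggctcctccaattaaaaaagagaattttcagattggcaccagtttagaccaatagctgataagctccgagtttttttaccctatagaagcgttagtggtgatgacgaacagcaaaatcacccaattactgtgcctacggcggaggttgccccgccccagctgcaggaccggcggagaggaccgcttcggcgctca
Cox6a1, chr5:115348959-115349208, minus strand: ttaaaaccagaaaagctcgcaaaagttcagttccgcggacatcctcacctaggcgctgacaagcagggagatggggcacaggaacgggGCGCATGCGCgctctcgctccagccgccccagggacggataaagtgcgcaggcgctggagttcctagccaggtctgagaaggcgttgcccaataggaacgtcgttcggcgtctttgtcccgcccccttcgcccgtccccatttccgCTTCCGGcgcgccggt
The Atp5k stretch held the NRF1 core, and its window also an ETS core that did not lie wholly within the printed bases. The Atp5b window held none of the 3 motifs. The Cox6a1 stretch held both the NRF1 core and the ETS core, the latter on the opposite strand, and the 10 capitals at each NRF1 match are overlapping matches on both strands.

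Nuclear members were read at the highest summed level in hepatocyte-like cells. The sum was 79269, 50058, 64134 and 52840 CPM in libraries 1 to 4, a mean of 61575 CPM over libraries. Cholangiocyte-like cells followed at 43830 CPM over 2 libraries, erythroid-like cells at 38875 CPM over 2 libraries and sinusoidal endothelial-like cells at 35919 CPM over 4. Neutrophil-like cells were lowest at 18744 CPM, from 15388 to 23701 CPM by library. The lowest hepatocyte-like library lay above every other class and library, while neighbours in the order from granulocyte-monocyte progenitor-like cells down to macrophage-like cells overlapped in their library ranges.

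**Figure D1:**
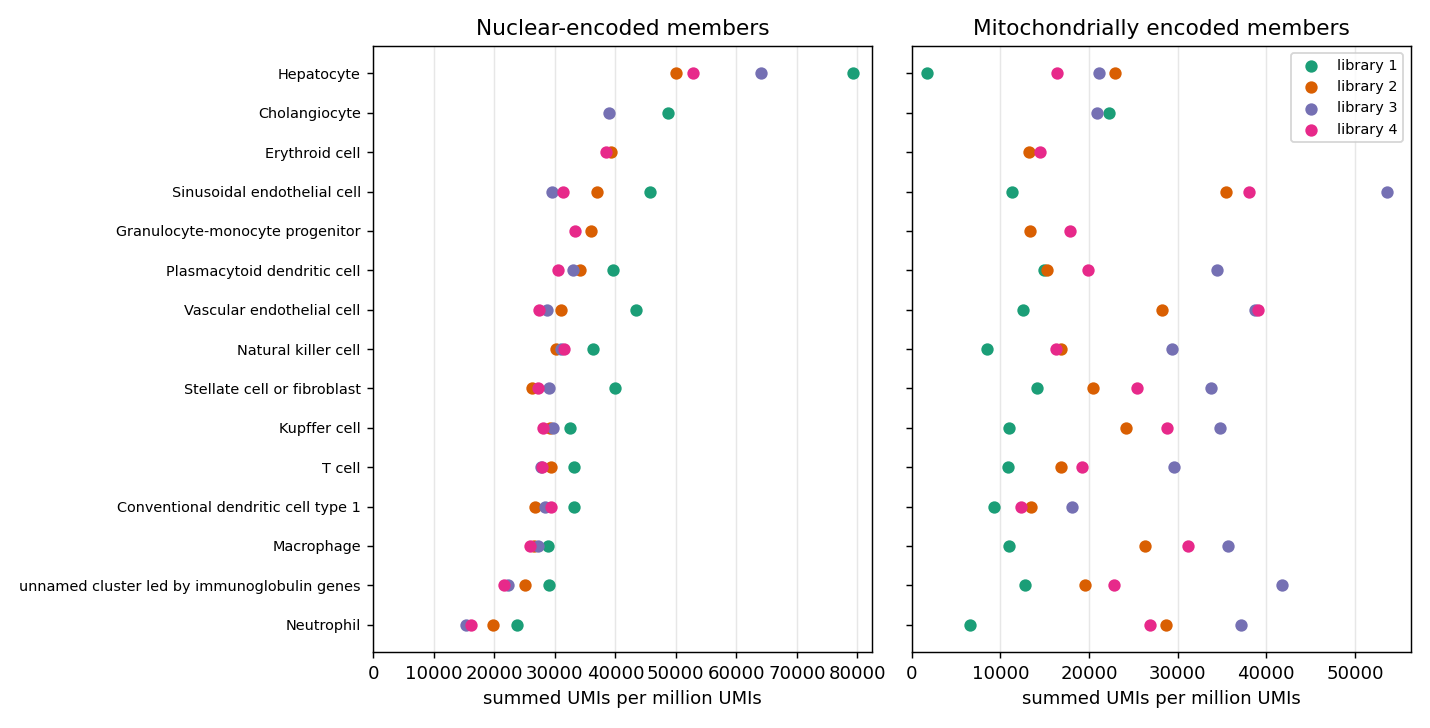
Summed CPM (x axes) of nuclear members (left) and mitochondrially encoded members (right) in each class (rows), 1 point per library with at least 20 cells. Hepatocyte-like cells sit at 50058 CPM or more on the left, and their library 1 point lies at 1677 CPM on the right.

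Within libraries, library 1 gave the highest nuclear level in each of the 12 classes in which it had enough cells, hepatocyte-like cells included, and it also gave the lowest mitochondrial level in all of them except cholangiocyte-like cells, where it was at 22223 CPM against 20940 CPM in library 3. This gradient between libraries touches every level pooled over libraries below.

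Mitochondrially encoded members were arranged otherwise. In hepatocyte-like cells they summed to 1677 CPM in library 1, 22907 in library 2, 21159 in library 3 and 16439 in library 4. Library 1 stood apart: 63.0% of its 3695 hepatocyte-like cells held no UMI of a mitochondrial gene, against 0.03% of these cells in library 3 and 0.42% in library 4. The other named cells of the same library 1 were at 11836 CPM, and 1.48% of them held no mitochondrial UMI. The low level was thus read in hepatocyte-like cells to a far greater degree than in the other cells of that library. Malat1 plus Neat1, RNAs kept in the nucleus, were also low in these cells, at 92.4 CPM. They were at 1201, 1040 and 961 CPM in hepatocyte-like cells of libraries 2 to 4, and at 8110 CPM in sinusoidal endothelial-like cells of library 1. The part of RNA quality in the nuclear and mitochondrial levels of library 1 was not tested.

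Hepatocyte-like cells were first compared with all other named cells, 20341 against 11862, to ask how the respiratory chain differs between parenchyma and the rest of the liver. The nuclear sum was 56020 CPM against 31582 CPM, a log2 ratio of 0.83 (0.82 to 0.83), and 1.03, 0.72, 1.21 and 0.86 within libraries 1 to 4. Of 85 nuclear members with enough counts, 56 were called higher and 2 lower; among all 13296 genes tested, 18.2% were called higher and 45.8% lower. The median log2 ratio of the nuclear members was 0.79 and that of all genes -0.51. When the most abundant genes, ribosomal and mitochondrial genes were left out of the total, the medians moved to 0.65 and -0.65. The members without enough counts were Cox7b2, Cox8b, Cox8c and the second Atp5o row.

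The core subunits of complex I, which carry its flavin and iron-sulfur clusters, were called higher in 7 of 7 cases, with a summed log2 ratio of 1.17. Ndufv1, the subunit that oxidises NADH, was at 322, 291, 215 and 369 CPM in hepatocyte-like cells of libraries 1 to 4 and at 71.0, 143, 54.4 and 115 CPM in the other named cells. Each hepatocyte-like value lay above all 4 of the others, and the pooled ratio was 2.86-fold (2.76 to 2.97). Ndufs3, of the arm that reaches into the matrix, was at 561, 422, 378 and 511 CPM against 128, 196, 103 and 180 CPM. For this gene, too, the groups did not overlap. Of the accessory subunits, which surround this core, the smallest calls were Ndufb3 with a log2 ratio of 0.60 and Ndufs4 with 0.63, while Ndufa3 (-0.07) and Ndufa1 (0.06) were not called.

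Complex III, which passes electrons from ubiquinol to cytochrome c, had 7 of 8 members called higher and a summed log2 ratio of 1.15. Uqcrfs1, its Rieske iron-sulfur protein, had the largest ratio of the nuclear members called higher, at 3.06-fold (2.99 to 3.14). Its levels were 1120, 694, 713 and 780 CPM in hepatocyte-like cells and 223, 285, 185 and 254 CPM in the others. Uqcrq, a small subunit at the membrane, was at 3370, 1914, 2928 and 2105 CPM against 835, 817, 766 and 834 CPM, so it was nearly level across libraries in the other cells and spread over a wider range in hepatocyte-like cells. Uqcrc1, a core protein on the matrix side, was called with a log2 ratio of 1.34, and Uqcrh, at 0.27, was the member not called.

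Complex IV, cytochrome c oxidase, showed the smallest shift of the 4 complexes, with a summed log2 ratio of 0.64 and 7 of 11 members called higher. Cox5b was at 1272 against 836 CPM, Cox6b1 at 1080 against 682 CPM, and Cox6c at 1210 against 764 CPM. Cox6a1 was not called, at 375, 476, 477 and 429 CPM in hepatocyte-like cells and 584, 452, 413 and 429 CPM in the others, and these groups overlapped. Cox4i1 (log2 ratio 0.49), Cox7c (0.42) and Cox8a (0.35) were not called either.

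Complex V had 11 of 15 members with enough counts called higher and a summed log2 ratio of 0.93. Atp5b, the catalytic beta subunit, was at 841, 1322, 719 and 1784 CPM in hepatocyte-like cells and at 227, 650, 263 and 596 CPM in the others, with a pooled ratio of 2.75-fold (2.71 to 2.80). The hepatocyte-like values lay above all of the others, although the highest and lowest libraries differed by a wide margin on each side. Atp5g3, 1 of 3 genes for the c subunit of the membrane ring, was at 4999, 3254, 3379 and 3414 CPM against 1184, 1404, 840 and 1307 CPM. Atp5g1, Atp5g2 and Atp5g3 encode the same mature protein, and the sources used here do not say how reads were divided among them. Atp5k, subunit e of the membrane part, was at 953, 159, 701 and 161 CPM against 401, 109, 301 and 113 CPM. It had a ratio of 1.59-fold, and hepatocyte-like cells were above the others in each library although the ranges over libraries overlapped.

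Among the assembly factors of complex I, 4 of 8 were called higher. Ndufaf1, at 53.7 against 18.3 CPM, and Ndufaf6, at 72.0 against 24.9 CPM, had the largest ratios, 2.94-fold and 2.90-fold. Cox7a2l, which joins complexes III and IV, had a log2 ratio of 0.42 and was not called. The members called lower were both isoforms: Cox6a2, at 1.22 against 68.2 CPM, and Cox4i2, with 1 UMI in hepatocyte-like cells against 115 UMIs in the others, a ratio of 343-fold (60.3 to 13660) by counting error.

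In the same comparison 0 mitochondrial members were called higher and 2 lower, mt-Nd6 and mt-Atp8. Their log2 ratios ran from -0.67 to -0.03 over the 13 genes. The summed ratio was -2.82 in library 1, 0.11 in library 2, -0.66 in library 3 and -0.70 in library 4, so its sign was not the same in each library. It also depended on the filter: the pooled sum was -0.25 with cells under 20% mitochondrial share and 0.62 with no such limit, a change of direction. No direction is therefore given for the mitochondrial members between hepatocyte-like and other cells. mt-Atp8 overlaps mt-Atp6 and mt-Nd4l overlaps mt-Nd4 on the mitochondrial genome, so that reads of each pair cannot be fully assigned to either.

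Ranked over the 14 named classes, hepatocyte-like cells held the highest pooled level for 42 of the 85 nuclear members, or 49.4%, against 12.6% of all 13296 genes. In 34 of the 42 hepatocyte-like cells were above the second class in each library that could be read. Cholangiocyte-like cells led for 16, sinusoidal endothelial-like cells for 13 and erythroid-like cells for 8 when pooled. Of these, 15, 13 and 5 members could be read in any library, and the lead held in each library read for 6, 2 and 3. Library 1, with the highest nuclear levels, held most of the cells of the first 2 of these classes. Hepatocyte-like cells led for 0 of the 13 mitochondrial members. Pooled, neutrophil-like cells led for 7 and vascular endothelial-like cells for 4, but within libraries none of the 7 held in more than 2 of 4 libraries, and of the 4 only mt-Atp6 held in each. As a mean over libraries, sinusoidal endothelial-like cells had the highest mitochondrial sum at 34619 CPM, with vascular endothelial-like cells at 29640, macrophage-like cells at 25990 and neutrophil-like cells at 24803 CPM. Neutrophil-like cells, lowest in the nuclear sum, were the class with the highest level of Malat1 plus Neat1, RNAs kept in the nucleus, at 11485 CPM, against 999 CPM in hepatocyte-like cells; the part of this in their nuclear level was not tested.

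The member with the most UMIs in each complex was Ndufa6 for complex I, Uqcrq for complex III, Cox8a for complex IV and Atp5g3 for complex V, by counts that are not corrected for transcript length. Among members led by hepatocyte-like cells, the ratio to the second class was 2.15-fold (2.08 to 2.23) for Uqcrq, 1.80-fold for Uqcrfs1, 1.79-fold for Atp5g3 and 1.60-fold for Cox7b. Sinusoidal endothelial-like cells led for Atp5h, of the peripheral stalk, at 1515 CPM against 1083 CPM in hepatocyte-like cells. This order held in 2 of the 4 libraries only.

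Tissue isoforms replace a common subunit in particular cell types, and 5 of them had a larger ratio between the first and the second class than any common subunit read here. Cox6a2, known as the heart and muscle form of subunit 6a, was read in 220 of 266 plasmacytoid dendritic-like cells (82.7%, 77.6 to 87.0%). Its level there was 2398 CPM, with 3074, 1420, 2092 and 1052 CPM in libraries 1 to 4, and it made up 88.0% of the UMIs of Cox6a2 and Cox6a1 together, as 3' tags not corrected for length. The second class, natural killer-like cells, was at 31.4 CPM with UMIs in 3.06% of cells, a 76.3-fold difference (53.9 to 112). In hepatocyte-like cells 0.295% of cells held a UMI, at a median depth of 2210 UMIs per cell against 2758 in plasmacytoid dendritic-like cells. Each of the 4 libraries therefore gave a level in plasmacytoid dendritic-like cells far above that background.

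Ndufa4l2, a relative of Ndufa4 known to be induced under low oxygen, and Cox4i2, the form of subunit 4 found in lung and vessel walls, both had their highest level in stellate- or fibroblast-like cells. Ndufa4l2 was at 22.9, 286, 12.1 and 556 CPM there in libraries 1 to 4, and Cox4i2 at 11.4, 122, 3.01 and 165 CPM. Libraries 2 and 4 were high and libraries 1 and 3 low for both genes, with 37 and 50 cells against 112 and 132. The mix of stellate cells, fibroblasts and pericytes within this class was not tested by library.

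Cox7a1, a muscle form of subunit 7a, was highest in cholangiocyte-like cells at 116 CPM, 114 CPM in library 1 and 119 CPM in library 3, against 9.18 CPM in Kupffer-like cells. Cox6b2, known from testis, was highest in erythroid-like cells at 109 CPM, 95.6 CPM in library 2 and 164 CPM in library 4, and 31.0% of all erythroid-like cells held a UMI of it. Cox8b had 8 UMIs in all, and Cox7b2 and Cox8c had 0.

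**Figure D2:**
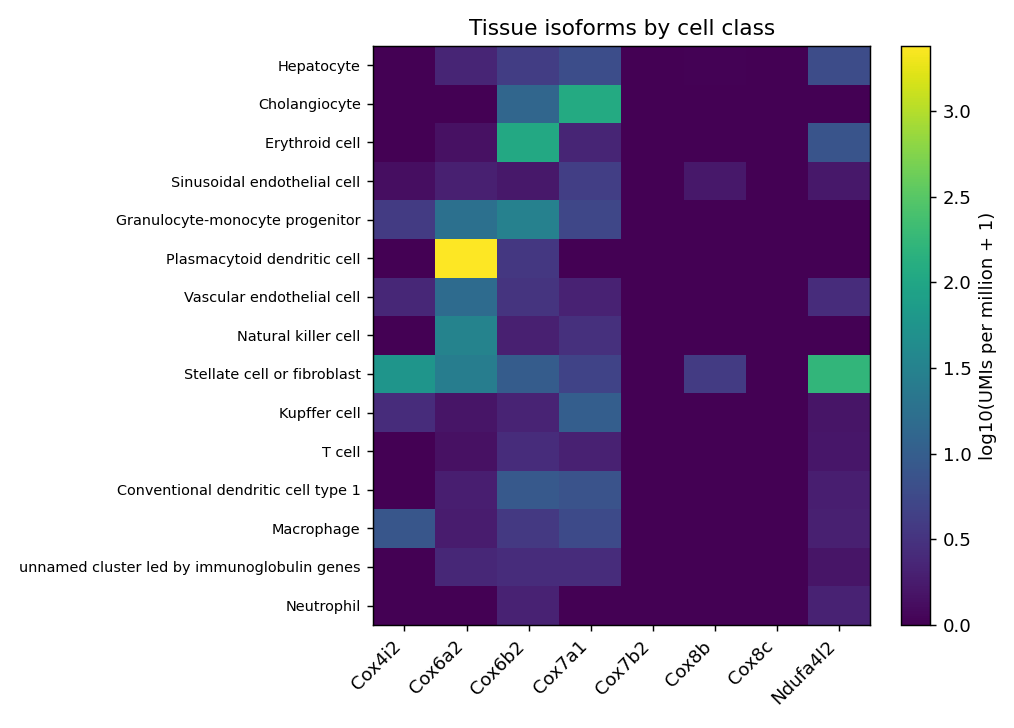
Levels of the 8 tissue isoforms (columns) in each class (rows), as log10 of CPM plus 1, pooled over libraries. The brightest cell is Cox6a2 in plasmacytoid dendritic-like cells at 2398 CPM, and Ndufa4l2 in stellate- or fibroblast-like cells is at 167 CPM.

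Hepatocyte-like cells of libraries 2 and 4 were compared with those of library 1, since the first 2 resembled each other and both differed from library 1. No library held both sides here. A call instead needed the same direction in library 2 and in library 4, each set against the same library 1 cells. The nuclear sum was lower, at 51383 against 79269 CPM, a log2 ratio of -0.63, with -0.66 for library 2 and -0.59 for library 4. Of 83 nuclear members with enough counts, 6 were called higher and 40 lower; of all 10902 genes, 55.5% were called higher and 9.64% lower, and the median over all genes was 0.74. All 13 mitochondrial members were called higher, with log2 ratios from 3.05 for mt-Nd3 to 6.17 for mt-Atp8.

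Members of the same complex went both ways. In complex V, Atp5k was at 953 CPM in library 1 and at 159 and 161 CPM in libraries 2 and 4, while library 3 was at 701 CPM, a log2 ratio of -2.58 for libraries 2 and 4. Atp5e, the epsilon subunit of the central stalk, was at 4027, 1308, 3161 and 1464 CPM in libraries 1 to 4. Atp5b was at 841, 1322, 719 and 1784 CPM, higher in libraries 2 and 4. For each of these 3 subunits of a single enzyme, libraries 1 and 3 lay on a common side of libraries 2 and 4.

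In complex I the accessory subunits Ndufa3 (911, 251, 908 and 250 CPM), Ndufv3 (988, 294, 733 and 346 CPM) and Ndufb2 (949, 322, 648 and 371 CPM) were lower in libraries 2 and 4. Ndufc2 was called higher, with 240, 413, 266 and 337 CPM. None of the 7 core subunits was called, and their sum differed by -0.22. In complex III, Uqcrc2, a core protein of the matrix side, was called higher (163, 292, 118 and 290 CPM), and 5 of the 8 members were called lower. In complex IV, 7 of 11 were called lower and 0 higher, with Cox7c at 1806, 806, 1843 and 761 CPM.

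The direction went with transcript length. Over the 83 nuclear members, the log2 ratio and the log2 of the median transcript length had Pearson's r = 0.52 and Spearman's rho = 0.57, a description across genes that share the same cells and are not independent. The 27 members under 600 nt had a median ratio of -0.80, the 33 from 600 to 1200 nt -0.59, and the 23 longer ones 0.02. Over all 10505 genes with a length r was 0.17, and the medians were -0.18, 0.18 and 0.88 in the same classes, so that shorter genes had lower ratios in both sets. Exceptions included Ndufb2, whose median annotated length is 2413 nt, at -1.46, and the short Ndufc2, at 576.5 nt, with 0.65. Between libraries 2 and 4 r was -0.06, and between library 3 and library 1 it was -0.30, while library 2 against 3 gave 0.63 and library 4 against 3 gave 0.65. In the other named cells pooled, library 3 against 1 gave 0.49. Within single classes it gave 0.09 in T-like, 0.005 in macrophage-like, 0.19 in Kupffer-like and 0.36 in sinusoidal endothelial-like cells. The mix of classes differed between libraries, and its part in the pooled value was not tested.

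**Figure D3:**
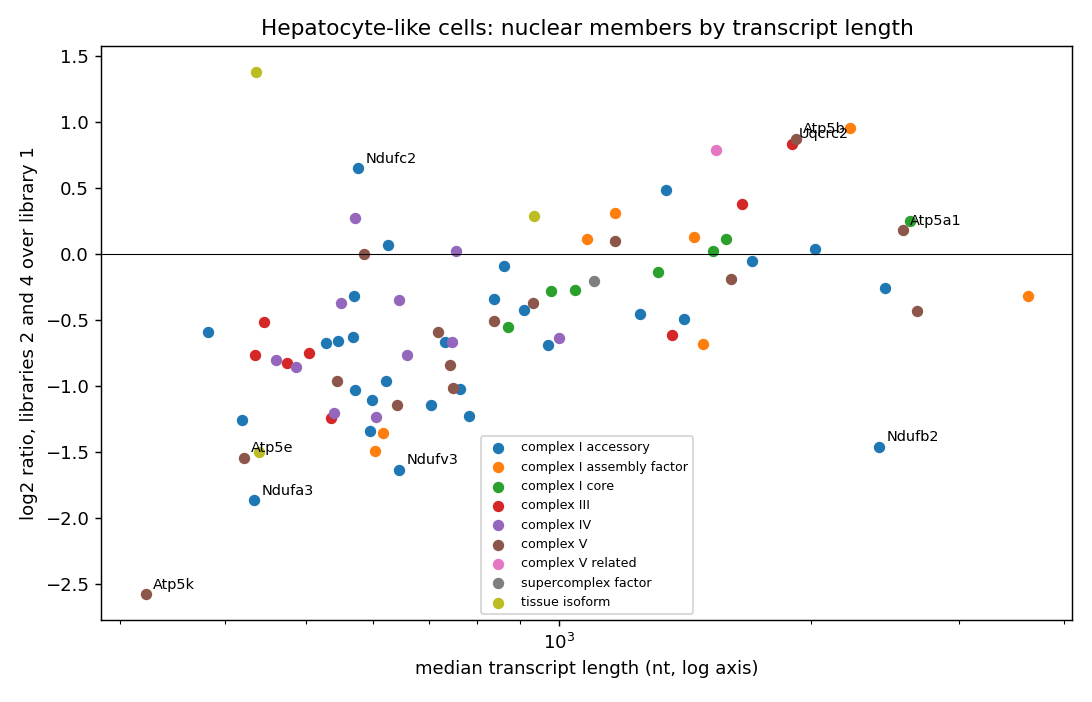
Log2 ratio of hepatocyte-like cells of libraries 2 and 4 over library 1 (y axis) against the median length of a gene's annotated transcripts (x axis, log scale), 1 point per nuclear member with enough counts, coloured by role. Atp5k, among the shortest, is at -2.58 and Atp5b, at 1916 nt, is at 0.88.

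Some members differed in the same direction in each cell class, and most did not. Outside hepatocyte-like cells, libraries 2 and 4 against 1 gave r = 0.51 over 85 members, and r was 0.64 in T-like, 0.61 in macrophage-like, 0.62 in Kupffer-like and 0.63 in sinusoidal endothelial-like cells, against -0.16 to 0.05 over all genes in these classes. Atp5k was lower in libraries 2 and 4 in 11 of 11 classes that could be read, with log2 ratios from -2.58 to -1.37. Ndufa3 was lower in 11 of 11, and Atp5b was higher in 11 of 11, from 0.88 to 1.75. Of 74 nuclear members read in at least 8 classes, 25 (33.8%) were lower in each class and 8 (10.8%) higher in each, against 5.88% and 15.2% of 3893 genes. Others changed sign, such as Uqcrfs1, at -0.61 in hepatocyte-like and 0.68 in Kupffer-like cells, and Atp5g3, at -0.59 and 0.42. The classes come from the same 4 libraries, so they are not separate samples, and sample, library preparation and depth cannot be told apart here.

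Of the 13 mitochondrial members, 10 (76.9%) were higher in libraries 2 and 4 in each class that could be read and 0 lower in each. Among 3893 genes the shares were 15.2% and 5.88%. mt-Atp8 was among these 10 members. It was at 5.81, 484, 216 and 343 CPM in hepatocyte-like cells of libraries 1 to 4, and at 50.7, 739, 329 and 756 CPM in the other named cells. Its log2 ratio for libraries 2 and 4 against 1 ran from 2.79 to 6.15 over 11 classes, and that of mt-Nd3 from -0.65 to 3.04, lower than mt-Atp8 in each. mt-Co1, a core subunit of complex IV, was at 314, 4359, 3431 and 2650 CPM in hepatocyte-like cells and at 2697, 4030, 6398 and 4950 CPM in the others.

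The 8 hepatocyte-like clusters spanned a wide range for both genomes. The nuclear sum was 79455 CPM in the cluster led by Elovl3 and Hsd3b5 (cluster 7, 3808 cells, 3610 of them in library 1) and 75901 CPM in the periportal cluster led by Sds and Arg1 (cluster 17, 3018 of 3037 cells in library 3). It was 59432 CPM in the cluster led by Saa1 and Saa2 (cluster 9) and 56761 CPM in the cluster led by Oat and Glul (cluster 20). The remaining sums were 54820 CPM in cluster 8, led by Mup17 and Lars2 and with a median of 838 UMIs per cell, 52193 CPM in the Afp cluster (cluster 6), 49497 CPM in cluster 21, led by Hsd17b6 and Igf2, and 17829 CPM in cluster 23, led by Apob and Neat1.

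Clusters found in libraries 2 and 4 gave close nuclear levels in both, with library 3 higher in some. The Afp cluster was at 52291, 51296 and 52128 CPM in libraries 2, 3 and 4. The Glul cluster was at 56521, 63541 and 56654 CPM, and cluster 21 at 49350, 56550 and 49308 CPM. In cluster 7, library 3 was at 62326 CPM against 80097 CPM in library 1. The mitochondrial sum differed more: 36371 CPM in the Afp cluster, 4835 CPM in the Glul cluster and 8756 CPM in cluster 21. In libraries 2 and 4 the Afp cluster was at 34584 and 39628 CPM and the Glul cluster at 3694 and 5242 CPM, so these did not overlap. Clusters 20 and 6 differed by complex as well, with 3131 against 1669 CPM for the complex I core and 11479 against 13725 CPM for complex IV.

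**Figure D4:**
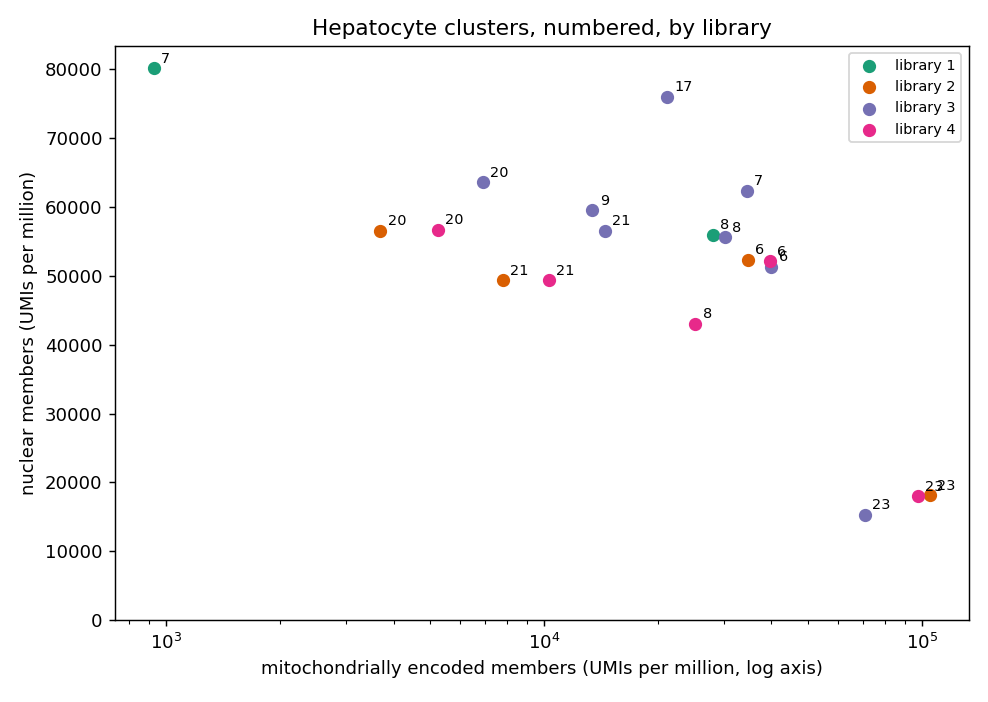
Nuclear members (y axis, CPM) against mitochondrially encoded members (x axis, CPM, log scale) in hepatocyte-like clusters, 1 point per cluster and library with at least 20 cells, labelled with the cluster's number. Cluster 23 lies apart at 15326 to 18110 CPM on the y axis and cluster 7 of library 1 at 930 CPM on the x axis.

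Cluster 23 stood apart in both genomes, with 99511 CPM of mitochondrial members and 14913 CPM of Malat1 plus Neat1, against 73 to 1258 CPM of the latter in the other 7 clusters. A like relation was read across hepatocyte-like cells binned by mitochondrial share. Cluster 23, with a median share of 10.5%, was not left out of these bins. It held 387, 85 and 219 cells in libraries 2, 3 and 4, and its part in the bins was not tested. As CPM of the non-mitochondrial UMIs, the nuclear members summed to 59020 in the 10545 cells with under 1% mitochondrial share, 57595 at 2 to 5%, 49386 at 5 to 10%, 29752 at 10 to 20%, and 21000 in the 1558 barcodes at 20% or more, which the filter otherwise removes. Malat1 plus Neat1 went from 436 to 12409 over the same range. The fall in the nuclear sum above 5% was read in libraries 2, 3 and 4. The sum was 46007, 57095 and 48195 at 5 to 10%, and 22910, 33093 and 17111 at 20% or more. At 10 to 20% it was 26619, 49155 and 26495, so the fall in that bin was smaller in library 3. In the other named cells the sum went from 37039 to 21651. Library 1 had too few cells with a high share to be read. The part of RNA quality in these levels was not tested.

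**Figure D5:**
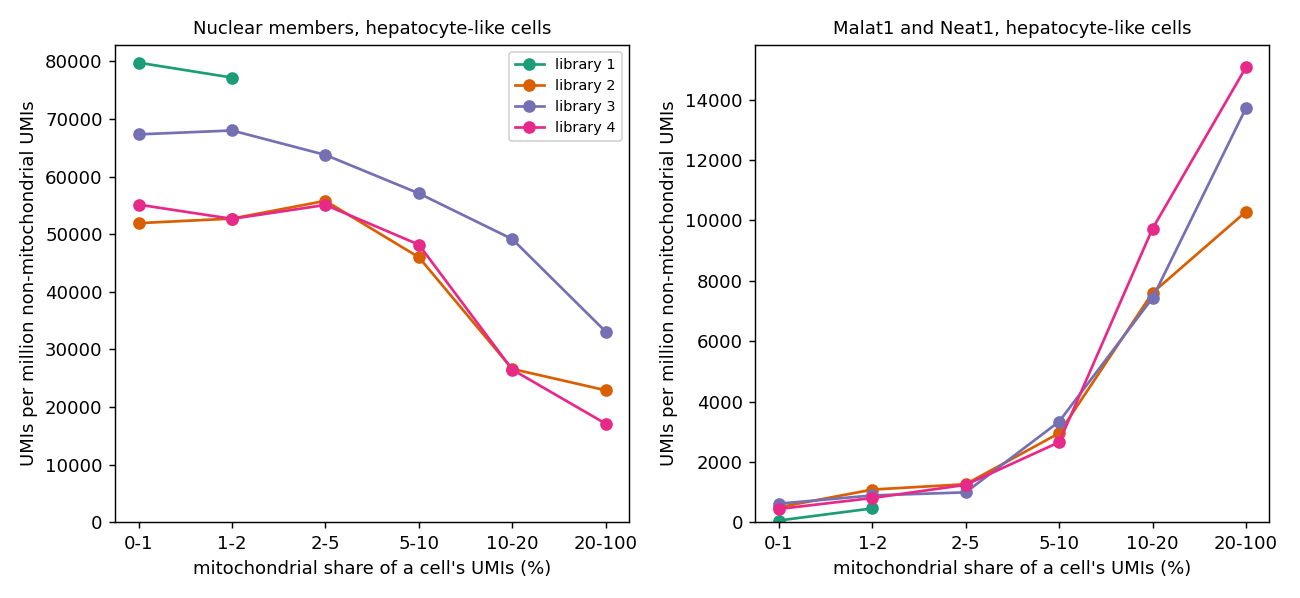
Nuclear members (left) and Malat1 plus Neat1 (right), in CPM of non-mitochondrial UMIs (y axes), in hepatocyte-like cells binned by mitochondrial share (x axes), 1 line per library and points only for bins of at least 20 cells. The nuclear sum in library 4 is 55141 in the lowest bin and 17111 in the highest.

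Hepatocyte states were then compared within the class. Cells were thinned to 1000 UMIs, leaving out 722, 338, 2399 and 686 shallower cells of libraries 1 to 4. They were split within each library by the thinned UMIs of the state's genes, into ranges and not cell types. High cells lay at or above the library's 75th percentile with at least 1 such UMI, and low cells at or below the 25th. The 75th percentile was 0 for Afp in each library and for serum amyloid outside library 3. It was also 0 for cycling outside library 2 and for Hsd3b5 and Elovl3 outside library 1. High there means at least 1 thinned UMI against 0. Because many states were common in some libraries and rare in others, the 2 sides held the libraries in unequal proportion, and a pooled ratio also carries the differences between libraries. Ratios within single libraries are therefore printed beside it. Shares over all genes are given for all libraries together. Counts with a library left out, or under another setting, have no such share beside them.

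Periportal-high cells (Ass1, Cps1, Arg1, Hal, Sds, Pck1 and Cyp2f2, genes of urea and glucose synthesis) had 5 nuclear members called higher and 1 lower of 83, against 2.93% and 13% of all 10527 genes. The higher ones were Ndufv1 (1.69-fold), Atp5b (1.63-fold), the alpha subunit Atp5a1 (1.62-fold), Uqcrfs1 (1.52-fold) and the gamma subunit of the central stalk, Atp5c1 (1.51-fold). Ndufv1 had log2 ratios of 0.03, 0.88, 0.73 and 0.82 in libraries 1 to 4, and Atp5a1 of 0.25, 0.78, 0.61 and 0.77, so library 1 was low for both. The nuclear sum differed by 0.23, and Cox6b2 was the member called lower. Without library 1, 9 nuclear members were called higher, and with cells thinned to 500 UMIs 1 was.

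The mitochondrial members went the other way in periportal-high cells. Of the 13, 0 were called higher and 12 lower, with log2 ratios from -1.45 to -0.76, and their sum was 10683 against 24983 CPM. The summed ratio was -0.43, -1.01, -0.81 and -1.76 in libraries 1 to 4, lower in each. The nuclear sum was higher in each library, at 0.18, 0.14, 0.37 and 0.18. The 2 genomes thus differed in opposite directions across this split in all 4 libraries. In library 1 the median mitochondrial share per cell was 0% on both sides. When abundant, ribosomal and mitochondrial genes were left out of the total, the pooled nuclear difference was 0.12 instead of 0.23. The mitochondrial difference was then -1.33. The part of a cell's mitochondrial share in the nuclear difference was not tested.

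Glul-high cells, Glul being the glutamine synthetase of the pericentral zone, had 2 nuclear members called higher, Atp5b (1.86-fold) and Ndufa9 (1.63-fold), and 2 lower, Atp5k and Cox7a1, of 83, against 3.9% and 2.52% of all genes. Atp5b had log2 ratios of 0.04, 1.12, 0.22 and 0.75 in libraries 1 to 4, large in libraries 2 and 4 only. The summed mitochondrial ratio was 1.23, -1.96, 0.67 and -2.37, with opposite signs in libraries 1 and 3 and in libraries 2 and 4. Glul itself was spread differently there: its 75th percentile was 10 and 16 thinned UMIs in libraries 2 and 4, and 0 and 1 in libraries 1 and 3. Without library 3 the counts were 6 higher and 5 lower, and without library 1 no member was called lower.

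Afp-high cells, Afp being the fetal serum protein that marks many liver carcinomas, had 2 nuclear members called higher, Cox6a2 (4.20-fold) and Ndufa4l2 (3.38-fold), and Ndufv3 called lower (1.55-fold), of 84, against 21.3% and 5.03% of all genes. Library 1 gave 3 Afp-high cells and could not be read alone. The nuclear sum differed by -0.00, -0.21 and -0.07 in libraries 2, 3 and 4, and the mitochondrial sum by -0.14, 0.91 and 0.63. Both isoforms were low, at 4.26 and 14.9 CPM in the high cells, and rested on 26 and 91 UMIs there. Of the mitochondrial members mt-Nd1 was called higher (1.58-fold). Without library 2 there were 0 nuclear members called higher and 12 mitochondrial ones called, and without library 4 there were 9 nuclear members called lower.

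Serum amyloid-high cells (Saa1, Saa2 and Saa3, of the acute phase) lay mostly in library 3, with 1138 cells against 72 to 79 in each of the others. Pooled, 5 nuclear members were called higher (Ndufa3, Atp5k, Atp5e, Ndufa13 and Ndufc1) and 6 lower (Ndufaf7, Uqcrc2, Atp5b, Atp5c1, Atp5a1 and Ndufv1) of 84, against 1.61% and 7.5% of all genes. With libraries at equal weight 0 were called higher and 2 lower. Atp5k, 2.43-fold higher when pooled, had log2 ratios of 0.06, 0.13, 0.22 and 0.22 within libraries. Atp5a1 had -0.28, -0.50, -0.31 and -0.35, lower in each. Without library 3 the counts were 0 and 2, and without library 1 they were 10 and 12. The nuclear sum within libraries was between -0.05 and 0.06.

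Cells high in Hsd3b5 and Elovl3, male-type genes of mature hepatocytes, came largely from library 1 (1408 cells) and library 3 (592 cells). Uqcrb was called higher and 0 nuclear members lower of 84, against 2.82% and 9.64% of all genes. Its log2 ratio was 0.81 pooled but 0.02, 0.02 and 0.06 in libraries 1, 3 and 4. Of the mitochondrial members 9 were called lower when pooled and 0 with libraries at equal weight. Without library 1 there were 7 nuclear members called higher and 4 mitochondrial ones called, and without library 4 there were 4 nuclear members called lower. The nuclear sum differed by -0.04, -0.02 and 0.09 in these libraries.

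Cycling-high cells had 1 nuclear member called higher, Cox6b2 (2.93-fold), and 1 lower, Ndufa4l2 (1.59-fold), of 83, against 16.9% and 1.6% of all genes. Cox6b2 was at 5.95 against 2.03 CPM, on 106 and 122 UMIs. The nuclear sum differed by 0.00, -0.06, -0.15 and -0.06 in libraries 1 to 4 and the mitochondrial sum by 0.40, -0.03, 0.32 and 0.36, and no common subunit was called. Without library 4, 5 nuclear members were called lower.

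Over 50 pools of 1 class in 1 library, nuclear members had a median Pearson's r of 0.52 with each other (3240 pairs) and mitochondrial members 0.90 (78 pairs), while nuclear and mitochondrial members had -0.28 with each other (1053 pairs). These are descriptions across pools that share libraries, depth and the same total.

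Genes around the respiratory chain were read in the comparison of hepatocyte-like with other named cells, beside the same background of 18.2% higher and 45.8% lower. Of complex II and the electron carriers, 9 of 11 were called higher, Etfa of the electron transfer flavoprotein with a log2 ratio of 2.12 and Sdhb with 1.48. Of the tricarboxylic acid cycle, which supplies NADH, 12 of 14 were called higher, Fh1 (fumarase) with 2.01 and Idh2 with 1.98. Of assembly factors outside the symbols used here, 15 of 32 were called higher and 0 lower.

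Genes that transcribe and maintain mitochondrial DNA had 7 of 12 called higher, among them Tfb2m (1.09), Twnk (1.15) and Tfam (0.63), and Mterf1a called lower. Of 9 regulators with enough counts, the coactivator Ppargc1a was called higher (7.96 against 2.82 CPM), and Nrf1 (-1.14), Gabpb1 (-1.19) and Nfe2l2 (-1.14) lower. Of 7 genes of uncoupling and nucleotide exchange, 4 were called higher, and Ucp2, an inner-membrane carrier, was called lower at 141 against 630 CPM. In glycolysis 8 of 14 were called higher and 4 lower, with the liver enzyme Pklr (1.79) among the higher and Hk1 (-6.99), Hk2, Pfkp and Pkm among the lower.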

How the data were processed

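The deposited file held UMI counts of 4 libraries in 1 matrix, made by the authors with Cell Ranger 6.0.1, per the file headers. The build mm9 is given in the submitters' processing notes, and other settings are not given in the sources used here. Each sample was a group of 1. The members, lists and splits were chosen with earlier results of these data known. Barcodes with at least 500 UMIs, 200 genes and a mitochondrial share under 20% were kept. Doublets were simulated and scored with a limit of 0.25, which removed 1506. Cells were clustered (scanpy 1.11.5, Leiden, 2000 variable genes, 30 components, resolution 1) without the members, mitochondrial, ribosomal and haemoglobin genes and the pathway lists. Counts were summed, and intervals for counting error were exact Poisson for levels, exact binomial for ratios and Clopper-Pearson for shares. The call rule was checked on simulated data. Of genes changed 2-fold, 98% were called between hepatocyte-like and other cells, 88% in the Afp split and 96% between libraries 2 and 4 and library 1. Of unchanged genes, 0.184%, 0.652% and 0.710% were called. The other state splits were not covered by this check. Named genes were the called members with up to 10 highest and 10 lowest ratios, the mitochondrial genes by range, the leading members of each complex across classes, and the tissue isoforms; members not called are named beside them, and other examples were chosen after their values were seen. Transcript lengths came from GENCODE by gene ID, not from the authors' build. Alternatives covered the mitochondrial limit, doublets, the total, the count minimum, equal library weights, each library left out, resolution and thinning depth. Values of some genes are not reported here.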

Additional observations from a re-analysis of the deposited data

How the results depend on the processing

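Of 282 values recomputed under alternatives, 212 stayed within 1.5 times the reported count and 70 did not, and no called nuclear member turned direction. The share of all genes called under each alternative is not given here, so the counts below cannot be set against a background. With a limit of 10% mitochondrial share, mitochondrial genes called were 5 between hepatocyte-like and other cells and 2 for Afp, and nuclear members were 3 higher for the periportal split and 1 lower for Hsd3b5 and Elovl3. With no limit the counts were 0 mitochondrial for hepatocyte-like cells and 0 for Afp, 1 nuclear lower for Glul, 0 lower for cycling and 13 higher for periportal. Leaving mitochondrial UMIs out of the total gave 2 mitochondrial genes for Afp, 3 nuclear higher for periportal and 1 lower for Hsd3b5 and Elovl3; leaving out abundant genes too gave the same 2, 3 and 1, with 4 lower for Glul and 0 higher for Hsd3b5 and Elovl3. With libraries at equal weight there were 5 mitochondrial genes for hepatocyte-like cells, 0 nuclear lower and 2 mitochondrial for Afp, 0 higher and 2 lower for serum amyloid, 0 and 0 for Glul, 2 higher for periportal, and 0 nuclear higher and 0 mitochondrial for Hsd3b5 and Elovl3. Thinning to 500 UMIs gave 4 nuclear lower and 3 mitochondrial for Afp, 3 higher for serum amyloid, 4 lower for Glul, 0 lower for cycling, 1 higher for periportal, and 2 higher, 2 lower and 0 mitochondrial for Hsd3b5 and Elovl3.

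Leaving out each library in turn gave ranges. Hepatocyte-like against other cells: 46 to 59 nuclear higher, 1 to 3 lower and 0 to 2 mitochondrial, the last 0 without library 4 and the 1 lower without library 2 or 4. Afp: 0 to 3 higher, 0 to 9 lower and 0 to 12 mitochondrial, the last 12 without library 2 and the 9 without library 4. Serum amyloid: 0 to 10 higher, 2 to 12 lower and 0 to 1 mitochondrial, with 10 and 12 without library 1 and 0 and 2 without library 3. Glul: 1 to 6 higher, 0 to 5 lower and 0 to 2 mitochondrial, the highest of each without library 3. Cycling: 1 to 5 lower, the 5 without library 4, and 0 to 1 mitochondrial. Periportal: 4 to 9 higher, the 9 without library 1. Hsd3b5 and Elovl3: 1 to 7 higher, 0 to 4 lower and 4 to 10 mitochondrial, the 7 and the 4 mitochondrial without library 1 and the 4 lower without library 4. The cause of these moves was not tested. Library 1 had few UMIs in hepatocyte-like cells, so low members there carry wide counting error. No paired analysis of the samples was possible because no source used here pairs cells with a sample, and each sample is a group of 1. Cell classes and states have both sides within each library, and their ratios within libraries are given as values with no test.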
